A study of Mus musculus with 40 samples.

Results

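The 9 genes Krt20, Emp1, Car1, Car4, Alpi, Slc26a3, Aqp8, Slc16a1 and Slc20a1 are genes of surface colonocytes, the absorptive cells at the luminal face of the large intestine. They were chosen by name, as the rows of the deposited count table whose mouse Ensembl ID carries one of these symbols, and they are 9 of 45792 mouse gene IDs. All 9 passed the filter on low counts in the main fits. Alpi did not pass it in epithelium on day 3 when only the libraries compared were fitted. Each T.mu mouse had been given 2000000 flow-sorted Tritrichomonas musculis, a protozoan of the mouse gut, and control mice none. RNA was taken from colonic epithelial cells and from total colonic tissue on days 3, 14 and 48 and counted at transcript 3′ ends. Each T.mu group and each uninoculated control group had 3 libraries on days 3 and 14 and 4 on day 48, in each of the tissues, which gives 40 libraries in 12 groups. The labels name a litter for each mouse but no strain, age or sex, no region of the colon and no measure of how many protozoa each mouse carried.

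The colonic epithelium renews from stem cells at the crypt base. Daughter cells stop dividing on the way up and turn on a surface programme of brush border enzymes, transporters and a late keratin before they are shed into the lumen. The absorptive surface of the colon takes up water, sodium chloride and the short-chain fatty acids that bacteria make, and exchanges chloride for bicarbonate. The members were read by role, first the structural genes, then the enzymes, then the channels and transporters.

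In the GENCODE M21 annotation of GRCm38, all 9 members are protein-coding. Krt20 lies at chr11:99428403-99438150 on the minus strand, Emp1 at chr6:135362545-135383173 on the plus strand, Car1 at chr3:14766216-14808368 on the minus strand and Car4 at chr11:84957786-84966044 on the plus strand. Alpi lies at chr1:87098002-87101606 on the minus strand, Slc26a3 at chr12:31390871-31473917 on the plus strand and Aqp8 at chr7:123462291-123468004 on the plus strand. The monocarboxylate transporter Slc16a1 lies at chr3:104638668-104658462 and the phosphate transporter Slc20a1 at chr2:129198764-129211616, both on the plus strand. Slc20a1 overlaps the antisense entries Gm4430 and 9830144P21Rik, which held 52 and 154 counts over all libraries, against 6958 counts for Slc20a1. The strand of counting is not given in the sources used here, so reads of these overlapping genes cannot be told apart. Entries on the same strand lie within Slc16a1 (Gm43581 with 393 counts and Gm43585 with 42), Car1 (Gm16399 with 71) and Slc26a3 (Gm9359 with 5).

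RefSeq promoter entries (GRCm38.p6) were found for 8 of the 9 members, the exception being Car1. The 4 stretches printed here lie directly before the first listed start and belong to Krt20, which was higher with T.mu in both tissues, Car4, which was higher in total tissue on day 14, and the transporters Slc16a1 and Slc20a1, which were lower there. Capitals mark every match, on either strand, to 5 short motifs. The TATA box was searched as TATAAA. For CDX, the intestinal homeobox factors, the letters were TTTATG. The nuclear receptor HNF4 was searched as CAAAGT. For the KLF zinc finger family the letters were CACCC. The GC box was searched as GGGCGG.
Krt20, chr11:99438154-99438403, minus strand: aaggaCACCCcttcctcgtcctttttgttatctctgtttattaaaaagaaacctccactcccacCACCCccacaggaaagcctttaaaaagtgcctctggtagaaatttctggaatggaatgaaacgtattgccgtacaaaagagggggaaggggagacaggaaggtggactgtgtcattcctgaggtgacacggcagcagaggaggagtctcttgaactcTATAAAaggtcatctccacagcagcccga
Car4, chr11:84957504-84957753, plus strand: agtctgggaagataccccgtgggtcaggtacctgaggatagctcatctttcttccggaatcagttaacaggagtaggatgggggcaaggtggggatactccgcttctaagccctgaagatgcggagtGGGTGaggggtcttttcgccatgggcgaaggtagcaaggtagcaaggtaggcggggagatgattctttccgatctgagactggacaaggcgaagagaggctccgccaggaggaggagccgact
Slc16a1, chr3:104638414-104638663, plus strand: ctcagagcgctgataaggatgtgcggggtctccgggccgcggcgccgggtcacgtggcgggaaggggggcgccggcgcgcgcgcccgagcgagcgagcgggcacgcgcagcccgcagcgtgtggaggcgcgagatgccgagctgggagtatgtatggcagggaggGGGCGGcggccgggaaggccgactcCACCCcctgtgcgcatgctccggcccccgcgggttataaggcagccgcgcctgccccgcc
Slc20a1, chr2:129198523-129198763, plus strand, ending where the annotated gene begins: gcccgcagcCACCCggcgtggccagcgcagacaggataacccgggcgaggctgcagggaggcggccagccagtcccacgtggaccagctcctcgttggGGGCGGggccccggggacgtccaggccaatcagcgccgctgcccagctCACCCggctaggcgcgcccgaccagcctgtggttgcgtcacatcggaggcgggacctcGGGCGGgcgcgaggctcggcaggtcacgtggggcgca

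A TATA box match stood before the RefSeq starts of Krt20, Alpi and Slc26a3. Of the 32851 listed mouse promoters, 12.4% hold one in the 250 bases before the start. The Slc26a3 stretch, chr12:31437969-31438218, lies within the annotated gene, as do those of Emp1. GC box matches stood before Slc16a1 and Slc20a1, and 32.7% of promoters hold one. The KLF letters were found before 7 members, against 52.0% of all promoters. The CDX letters were found before the second listed start of Emp1 (10.8% of promoters) and the HNF4 letters before Alpi (12.6% of promoters). No matches overlapped in the stretches printed, and a match of letters is a description of the sequence only.

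Mouse counts per library ran from 170291 to 2866306 in epithelium (median 1166080) and from 220717 to 6756616 in total tissue (median 2158349). Depth was uneven between arms of total tissue: the median library had 2093251 counts with T.mu and 351445 in controls on day 14, and 504696 with T.mu and 3323898 in controls on day 48. On day 48 the second part of the labelled sample name was one in the T.mu total tissue libraries and another in the controls, whereas on every other day, and in epithelium, both arms shared it. That name part and the inoculum cannot be told apart in total tissue on day 48. The epithelial libraries held all 7 pan-epithelial markers, and summed smooth muscle and fibroblast markers reached at most 76.8 and 42.7 CPM in them. Immune cell genes were uneven: Ptprc held 324 counts over the epithelial and 600 over the total tissue libraries, Cd3e 27 and 31. Jchain held 120 and 8729, and Lyz2 42 and 4176. Of the endothelial genes, Kdr held 74 and 149 counts and Pecam1 49 and 548. These gene counts are not scaled for the lower depth of the epithelial libraries. How many other cells the epithelial preparation kept was not tested. Levels are TMM-scaled CPM, that is, counts scaled by library size and by a TMM factor for each library. Member levels within a tissue were scaled over the libraries of that tissue. Those in the contrast between control tissues were scaled over all libraries together. The p-values are from edgeR's quasi-likelihood test with Benjamini-Hochberg adjustment over all genes tested, and a change is one with adjusted p under 0.05. The 4 libraries of each day 48 group carry different litter labels, while the design text names 3 mice per group, and the p-values measure the spread between libraries.

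In total tissue, Krt20, Emp1 and Car1 were higher and Slc20a1 was lower with T.mu when the 3 days were averaged. These were 4 of the 9 members called, against 1.91% of the 11696 genes tested, of which 0.410% were lower. Slc20a1 was 2.05-fold lower, and the 3 higher members rose by 1.22- to 1.37-fold. These averages include day 48, where the second part of the sample name cannot be told apart from the inoculum. No alternative fit of the average left day 48 out. By day, 0 members were called on day 3 (background 0.470%), 4 on day 14 (0.966%) and 2 on day 48 (1.80%). On day 3 edgeR gave 1 member, Slc20a1, an unadjusted p under 0.05, and DESeq2 called 0. On day 14, 4 members lay higher in every T.mu library than in every control and 2 lower, against 8.77% and 4.67% of genes. Fewer cells of a type and less RNA per cell cannot be told apart in these bulk samples. The antibody chain gene Jchain was 1.87-fold higher with T.mu on day 48 (edgeR adjusted p = 0.00349). It is a single gene of the immune cell list and does not stand for that list. On that day the second part of the sample name cannot be told apart from the inoculum. Ribosomal RNA genes with Lars2 took 6.54% to 9.57% of counts with T.mu and 10.7% to 13.5% in controls on day 14. On day 48 they took 10.8% to 17.3% and 9.04% to 11.1%. With these genes left out, the day 14 log2 fold changes were 0.684 for Emp1, 0.738 for Car4, -0.794 for Slc16a1 and -1.335 for Slc20a1. The main fit gave 0.700, 0.755, -0.779 and -1.321. Beyond such refits, the part of ribosomal RNA in the results was not tested.

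Krt20 encodes keratin 20, the intermediate filament protein of surface enterocytes. In total tissue it measured 3009, 2962 and 2423 CPM with T.mu on day 3, against 2724, 2426 and 2141 CPM in controls, and the groups overlapped. On day 14 the T.mu libraries had 2721, 3870 and 3196 CPM and the controls 2190, 2224 and 2517 CPM, so that every T.mu library was above every control. On day 48 the T.mu libraries had 2279, 3917, 2794 and 3639 CPM and the controls 1850, 2235, 2032 and 2538 CPM, and only the T.mu library at 2279 CPM fell within the control range. Krt20 was 1.46-fold higher with T.mu on day 48 (log2 fold change 0.55 ± 0.14 SE, adjusted p = 0.0256) and 1.33-fold higher as the mean over days (0.42 ± 0.09, adjusted p = 0.0026). Krt20 on day 48 lost its call without any one of control replicates 1, 2 and 3 or T.mu replicates 2 and 4 (adjusted p 0.0521 to 0.172), with no filter on low counts (0.214), with only the libraries compared (0.0799) and without libraries under 400000 counts (0.0567). Over the days, Krt20 stayed called in all 20 fits that left out 1 library. That call was lost without the 4 libraries under 400000 counts, which include 2 of 3 day 14 controls.

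Emp1 encodes an epithelial membrane protein. In total tissue the T.mu libraries had 3252, 3184 and 2958 CPM on day 3, against 3041, 2795 and 2153 CPM in controls. On day 14 they had 1575, 2258 and 2312 CPM, against 1164, 1259 and 1352 CPM in controls. On day 48 they had 2119, 2769, 3044 and 3159 CPM, against 2062, 2016, 1944 and 2138 CPM in controls. The arms did not overlap on day 14, and on day 48 only the lowest T.mu library lay inside the control range. Emp1 was 1.62-fold higher on day 14 (0.70 ± 0.16, adjusted p = 0.00813) and 1.37-fold higher over the days (0.46 ± 0.09, adjusted p = 0.000282). The mean over days was called under all 8 alternative settings and all 20 fits without 1 library. The day 14 call was lost without control replicate 1, T.mu replicate 2 or T.mu replicate 3 (adjusted p 0.0925, 0.0796 and 0.084). It was also lost when only the libraries compared were fitted (0.0797), and scaling to the pan-epithelial genes gave 0.37 (0.425). Without libraries under 400000 counts, which left out 2 of 3 controls, it was lost at a value of 0.58. On day 48 the edgeR value of Emp1 was not called, and it was called by DESeq2 (adjusted p = 0.00969), with RLE scaling (0.0154) and with counts halved (0.0455).

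Emp1 also differed between days in control total tissue, averaging 2663 ± 458 CPM on day 3, 1258 ± 94 CPM on day 14 and 2040 ± 81.4 CPM on day 48 (SD, n = 3, 3 and 4; edgeR adjusted p = 3.73e-05). Slc16a1 was the other member whose control level differed between days (adjusted p = 0.0164), with 217 ± 65.3, 287 ± 53.1 and 386 ± 67.4 CPM on days 3, 14 and 48. These were 2 of 9 members, against 1.15% of genes. The control libraries of each day also had their own second part of the sample name, so day and that part cannot be told apart. Slc16a1 lost that call without control replicates 1 or 3 of day 3 or control replicates 3 or 4 of day 48 (adjusted p 0.0768 to 0.155), and Emp1 lost it with pan-epithelial scaling (0.0615). In control epithelium 0 members were called between days (background 0.0791%), with 4 at an unadjusted p under 0.05, and DESeq2 called 2, Krt20 and Car4.

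The carbonic anhydrases interconvert carbon dioxide and bicarbonate, Car1 in the cytosol and Car4 at the cell surface. Car1 in total tissue had 45940, 58480 and 43360 CPM with T.mu on day 3, against 47390, 51120 and 47150 CPM in controls. On day 14 it had 56110, 57430 and 61360 CPM with T.mu, against 42880, 39560 and 44860 CPM in controls. On day 48 it had 51510, 44600, 48610 and 43700 CPM with T.mu, against 43950, 37910, 35280 and 29030 CPM in controls. The arms overlapped on day 3 and were apart on day 14, and on day 48 the highest control lay just above the lowest T.mu library. Over the days Car1 was 1.22-fold higher with T.mu (0.28 ± 0.07, adjusted p = 0.0137). This call was lost without control replicate 2 of day 14 (adjusted p = 0.0528) or T.mu replicate 2 of day 3 (0.0884). It was also lost with pan-epithelial scaling (0.396) and with no filter on low counts (0.0518). Without the libraries under 400000 counts, which include 2 of 3 day 14 controls, it was lost as well.

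On single days Car1 was not called, with adjusted p = 0.0629 on day 14 and 0.0718 on day 48. With the replicate block on litter it was called on both, at adjusted p = 0.0155 and 0.0196. It was also called on day 14 with no filter on low counts (0.00671) and without ribosomal RNA genes and Lars2 (0.0493), and on day 48 by DESeq2 (0.00954) and with RLE scaling (0.00856). Red blood cells also make Car1. The 7 red blood cell genes summed to 0 to 42.2 CPM in total tissue, where Car1 itself was at least 29030 CPM. The part of red blood cells in the Car1 differences was not tested.

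Car4 was called in total tissue on day 14. It had 1987, 2720 and 1892 CPM with T.mu on day 14, against 1078, 1372 and 1458 CPM in controls, with no overlap, and was 1.69-fold higher (0.76 ± 0.16, adjusted p = 0.00321). Without control replicate 1 or T.mu replicate 2 the adjusted p was 0.0878 or 0.132, and with pan-epithelial scaling the value was 0.42 (0.355). Without libraries under 400000 counts, which left out 2 of 3 controls, the value was 0.58 and not called. On day 3 its level was 1252 ± 22.6 CPM with T.mu and 1426 ± 216 CPM in controls (SD, n = 3 each), and on day 48 it was 1454 ± 79.3 and 1268 ± 132 CPM (SD, n = 4 each). The test that the effect differed between days gave Car4 adjusted p = 0.114, against 0.049 with the replicate block, 0.0235 by DESeq2 and 0.0265 with no filter on low counts.

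**Figure D1:**
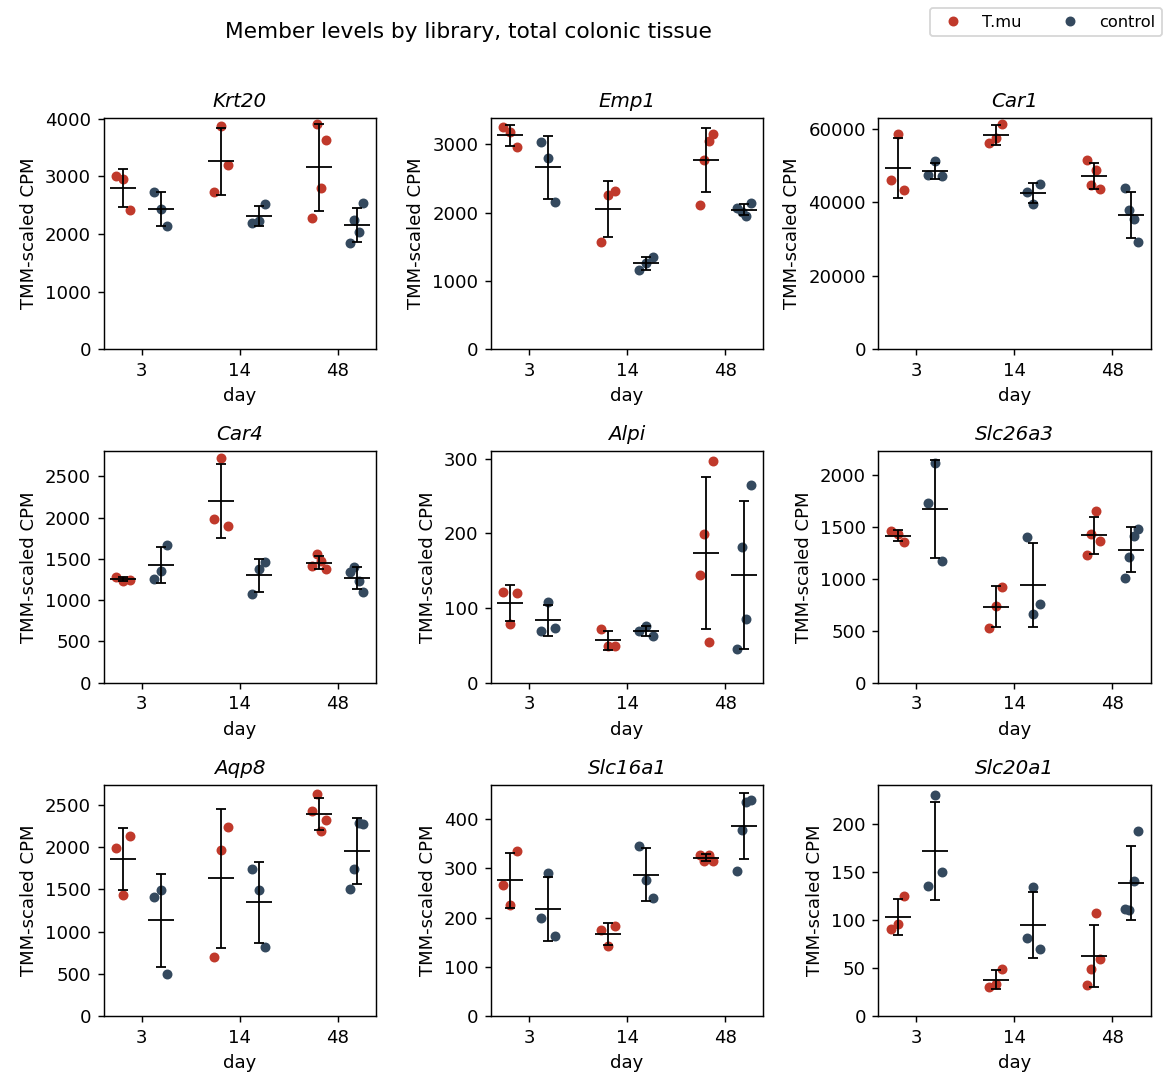
TMM-scaled CPM of each member in each total colonic tissue library (points), with the group mean and SD (bar and whiskers), by day, T.mu left of control. Slc20a1 points of T.mu libraries lie below all control points on each day, and Emp1 and Car4 points lie above them on day 14.

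Slc20a1, a sodium-dependent phosphate transporter, had 90.3, 95.4 and 125 CPM with T.mu on day 3, against 135, 230.4 and 149.8 CPM in control total tissue. On day 14 it had 30.6, 34.0 and 49.1 CPM with T.mu, against 81.1, 134 and 69.6 CPM in controls. On day 48 it had 32.7, 49.2, 108 and 59.5 CPM with T.mu, against 112, 110.4, 141 and 192 CPM in controls. Every T.mu library was below every control library of its day. Groups that did not overlap in this direction were found for 7.61%, 4.67% and 6.72% of all genes on days 3, 14 and 48. The counts behind the T.mu values were 202, 367 and 157 on day 3, 122, 65 and 22 on day 14, and 10, 30, 135 and 14 on day 48.

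Averaged over days, Slc20a1 was 2.05-fold lower with T.mu in total tissue (-1.03 ± 0.17, adjusted p = 0.00016). It was called under all 8 alternatives and in all 20 fits without 1 library, where the log2 fold change ran from -1.21 to -0.95. By day it was 2.5-fold lower on day 14 (-1.32 ± 0.34, adjusted p = 0.0483) and 2.05-fold lower on day 48 (-1.04 ± 0.27, adjusted p = 0.0358), and the day 3 value was -0.74 ± 0.28 (adjusted p = 0.624). On day 14 the call was lost without control replicates 1 or 2 or T.mu replicates 1 or 2 (adjusted p 0.175 to 0.279). It was also lost with RLE scaling (0.0605), with counts halved (0.108) and without ribosomal RNA genes and Lars2 (0.0502). Without the libraries under 400000 counts, which left out 2 of 3 controls, it was lost at a value of -0.98. On day 48 it was lost without control replicates 3 or 4 or T.mu replicates 1, 2 or 4 (adjusted p 0.0839 to 0.151), without the 2 T.mu libraries under 400000 counts (0.247), and with RLE scaling, pan-epithelial scaling, counts halved or only the libraries compared (0.0698 to 0.0999).

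Slc16a1 encodes the monocarboxylate transporter MCT1, which carries lactate and short-chain fatty acids. On day 14 it had 175, 142 and 183 CPM with T.mu in total tissue, against 345, 277 and 240.1 CPM in controls, and was 1.72-fold lower with no overlap (-0.78 ± 0.20, adjusted p = 0.0398). That call held in 1 of the 6 fits without 1 library, and the adjusted p in the other 5 was 0.0563 to 0.398. The call was also lost with no filter on low counts (0.175). Without libraries under 400000 counts, which left out 2 of 3 controls, it was lost at a value of -0.55. It had 266, 226 and 335 CPM with T.mu on day 3, against 198, 289.8 and 163 CPM in controls, where the log2 fold change was 0.34 ± 0.19. On day 48 the T.mu libraries stood close together at 327, 315, 327 and 314 CPM, within the control spread of 294, 378, 433 and 439 CPM (-0.27 ± 0.17, adjusted p = 0.519). The adjusted p for a difference of the effect between days was 0.158, and 0.0292 by DESeq2.

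Slc26a3, the chloride-bicarbonate exchanger of the colonic surface, Aqp8, a water channel, and Alpi, an intestinal alkaline phosphatase, gave no call in total tissue. Slc26a3 ran from 527 to 1651 CPM with T.mu and from 663 to 2114 CPM in controls. Aqp8 ran from 697 to 2631 CPM with T.mu and from 501 to 2282 CPM in controls, with a mean log2 fold change of 0.43 ± 0.24 (adjusted p = 0.572). Alpi ran from 49.1 to 297 CPM with T.mu and from 44.6 to 265 CPM in controls, and its day 48 libraries spanned 54.3 to 297 CPM with T.mu. Its standard errors on single days were 0.515 to 0.666 on the log2 scale.

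In the epithelial preparation, Krt20 was 1.5-fold higher with T.mu as the mean over days (0.59 ± 0.14, adjusted p = 0.00828), 1 of 9 members against 3.39% of the 10119 genes tested. DESeq2 called Krt20 and Slc16a1. By day 0 members were called on days 3, 14 and 48, where the background was 0.356%, 0.504% and 0.296%. Unadjusted p-values under 0.05 were given to 3 members on day 3 (Krt20, Alpi and Aqp8), 1 on day 14 (Slc26a3) and 2 on day 48 (Alpi and Slc16a1), and DESeq2 called 0 on each day.

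Krt20 had 181, 250.1 and 214 CPM with T.mu on day 3, against 75.1, 146 and 85.1 CPM in control epithelium. On day 14 it had 286, 340.3 and 316 CPM with T.mu, against 229, 183 and 269 CPM in controls. On day 48 it had 297, 191, 333 and 212 CPM with T.mu, against 217, 214, 198 and 219.8 CPM in controls. The arms were apart on days 3 and 14, as for 7.60% and 9.76% of genes, and overlapped on day 48. On day 3 Krt20 was 2.01-fold higher (1.01 ± 0.27, adjusted p = 0.0912). With the replicate block the day 3 difference was called (1.10, adjusted p = 0.0369), and without control replicate 2 it was 1.45 (adjusted p = 0.0165).

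With T.mu on days 3 and 14 in this preparation, the summed pan-epithelial level was higher and the share of ribosomal RNA genes with Lars2 was lower. Both overlapped between arms on day 48. Refits for each are given below, and their part as a cause of the Krt20 increase was not tested. Of the 7 pan-epithelial genes, 4 were higher with T.mu over the days, Cldn3, a tight junction protein, by 1.69-fold (adjusted p = 0.00234) and Krt8, a simple epithelial keratin, by 1.51-fold (0.0085). The summed level of the 7 ran from 6340 to 9510 CPM with T.mu and from 3850 to 5780 CPM in controls on day 3, from 7500 to 10300 and from 4750 to 6680 CPM on day 14, and from 3830 to 7410 and from 3940 to 4910 CPM on day 48. Ribosomal RNA genes with Lars2 took 12.4% to 22.2% of counts with T.mu and 29.95% to 30.6% in controls on day 3, 12.1% to 14.9% and 22.1% to 27.8% on day 14, and 11.2% to 37.2% and 25.8% to 31.0% on day 48. Scaled to the pan-epithelial genes the mean log2 fold change of Krt20 was 0.13 (adjusted p = 0.582), and with ribosomal RNA genes and Lars2 left out it was 0.61 (0.00716). The pan-epithelial scaling moved the median of all genes to -0.457, against 0.02 with TMM. Without the 3 libraries under 400000 counts, which include 2 of 3 day 3 controls, the Krt20 value was 0.42 and not called.

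Per 100 pan-epithelial counts, Krt20 in epithelium stood at 3.0 ± 0.862 with T.mu and 2.1 ± 0.364 in controls on day 3, 3.79 ± 0.903 and 3.99 ± 0.124 on day 14, and 4.79 ± 0.646 and 4.75 ± 0.684 on day 48 (SD, n = 3, 3 and 4 per arm). In total tissue the same ratio was 27.9 ± 1.34 with T.mu and 22.9 ± 3.22 in controls on day 3, 32.9 ± 3.45 and 29.4 ± 1.88 on day 14, and 34.5 ± 1.61 and 23.6 ± 1.36 on day 48. In total tissue the arms were apart on this ratio on day 3, from 26.8 to 29.4 with T.mu and from 19.4 to 25.7 in controls. They were also apart on day 48, from 33.1 to 36.5 and from 22.3 to 25.5, and overlapped on day 14. The share of all genes apart on this ratio was not computed, so the gap is not shown to be particular to Krt20. Emp1 was apart on the same days in total tissue. Its ratio ran from 29.5 to 32.7 with T.mu and from 19.5 to 28.7 in controls on day 3. On day 48 it ran from 25.8 to 36 and from 20.8 to 24.8. On day 48 the second part of the sample name cannot be told apart from the inoculum.

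Slc16a1 in epithelium had 143, 131, 194 and 124 CPM with T.mu on day 48, against 208, 236, 304 and 222 CPM in controls. All T.mu libraries lay below all controls, as for 1.94% of genes, and the difference was not called (-0.71 ± 0.21, adjusted p = 0.235). Over the days its log2 fold change was -0.38 ± 0.14 (adjusted p = 0.101), which DESeq2 called (0.0457), as did the pan-epithelial scaling (-0.85, adjusted p = 0.00822). Slc20a1, lower in total tissue, had 55.1 ± 10.9 CPM with T.mu and 73.4 ± 31.8 CPM in controls in epithelium on day 3, 53.2 ± 18.6 and 56.2 ± 5.03 CPM on day 14, and 61.7 ± 6.96 and 68.7 ± 23.5 CPM on day 48 (SD, n = 3, 3 and 4 per arm). Its mean log2 fold change there was -0.23 ± 0.18 (adjusted p = 0.516), and with pan-epithelial scaling it was called lower (adjusted p = 0.0302).

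Alpi was close to the detection limit in epithelium. Its counts were 14, 2 and 22 with T.mu on day 3, against 2, 2 and 0 in controls, and 53, 2, 26 and 9 with T.mu on day 48, against 6, 2, 5 and 4 in controls. On day 48 this was 17.4, 1.87, 13.9 and 8.93 CPM with T.mu, against 4.01, 1.77, 3.005 and 3.79 CPM in controls. The lowest T.mu library of day 48 lay inside the control range. Over the days the log2 fold change was 1.15 ± 0.41 (adjusted p = 0.0962), and leaving out 1 library gave 0.0461 to 0.234, the lowest without T.mu replicate 2 of day 48. Small counts were even numbers more often than not in each library (61.7% to 87.4% of counts from 1 to 10), so these values carry less information than their size implies.

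The other 5 epithelial members gave no call with TMM scaling. With pan-epithelial scaling Slc26a3 was called lower over the days (-0.70, adjusted p = 0.026). Emp1 averaged 438 ± 26.6, 300 ± 69.0 and 389 ± 78.5 CPM with T.mu on days 3, 14 and 48, against 373 ± 72.3, 314 ± 34.7 and 354 ± 56.2 CPM in controls. Car1 ran from 4064 to 12910 CPM with T.mu and from 5971 to 13980 CPM in controls, and Car4 from 409.8 to 1204 CPM with T.mu and from 472 to 1017 CPM in controls. Red blood cell genes summed to 88.3 to 284 CPM with T.mu and 10.6 to 59.6 CPM in controls on day 3, where the log2 fold change of Car1 was 0.01 ± 0.26. Their part in the Car1 level was not tested. Slc26a3 on day 14 had 293, 380.3 and 447 CPM with T.mu, against 543, 551 and 517 CPM in controls, apart in the lower direction as for 8.94% of genes (-0.53 ± 0.23, adjusted p = 0.402). Aqp8 on day 3 had 411, 229.5 and 403 CPM with T.mu, against 253, 203 and 181 CPM in controls (0.72 ± 0.26, adjusted p = 0.268).

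**Figure D2:**
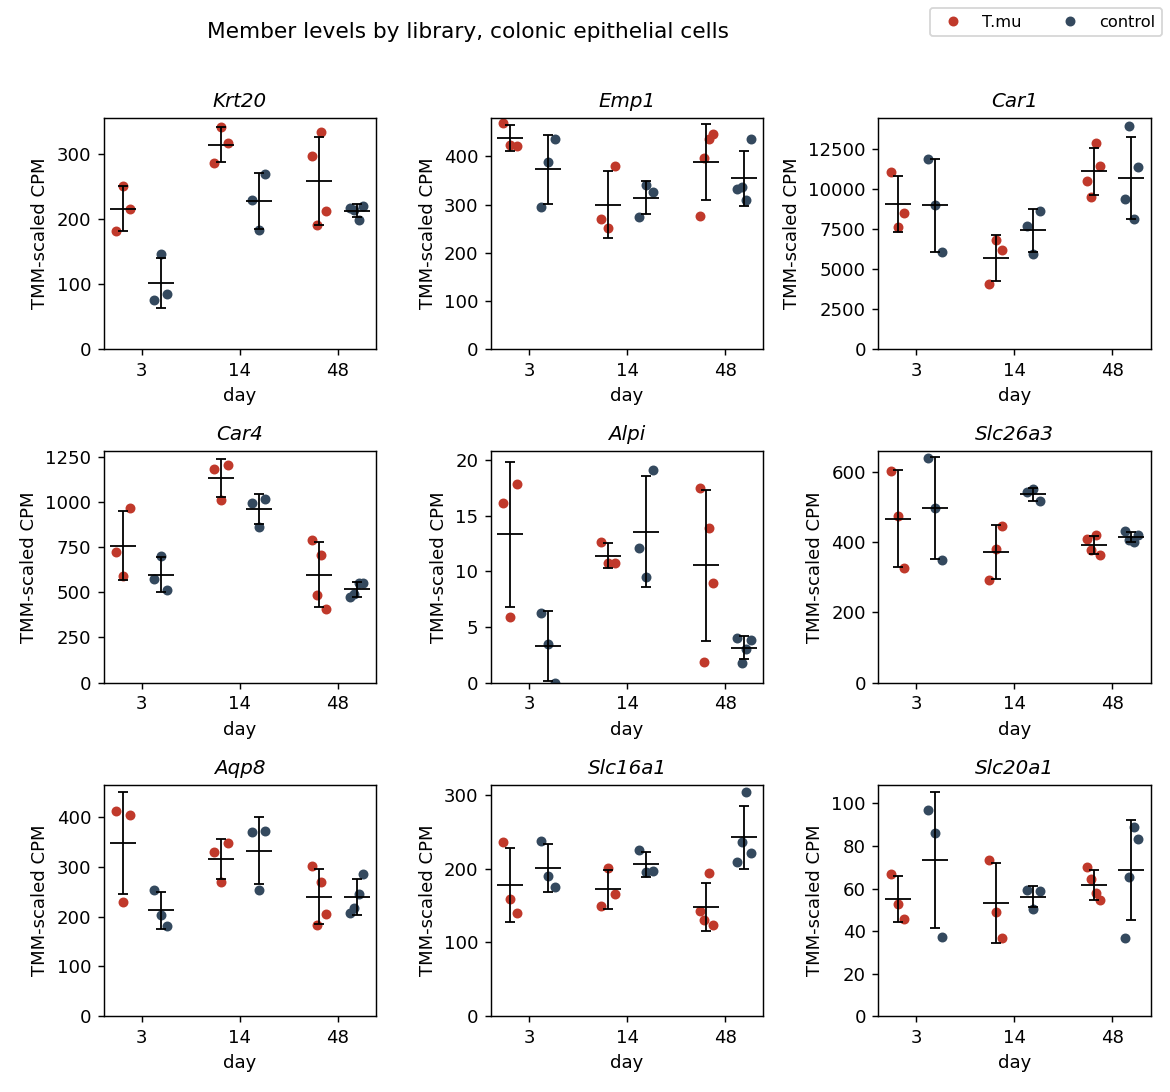
TMM-scaled CPM of each member in each epithelial library (points), with the group mean and SD (bar and whiskers), by day, T.mu left of control. Krt20 points of T.mu libraries lie above all control points on days 3 and 14, and Slc16a1 points lie below them on day 48.

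**Figure D3:**
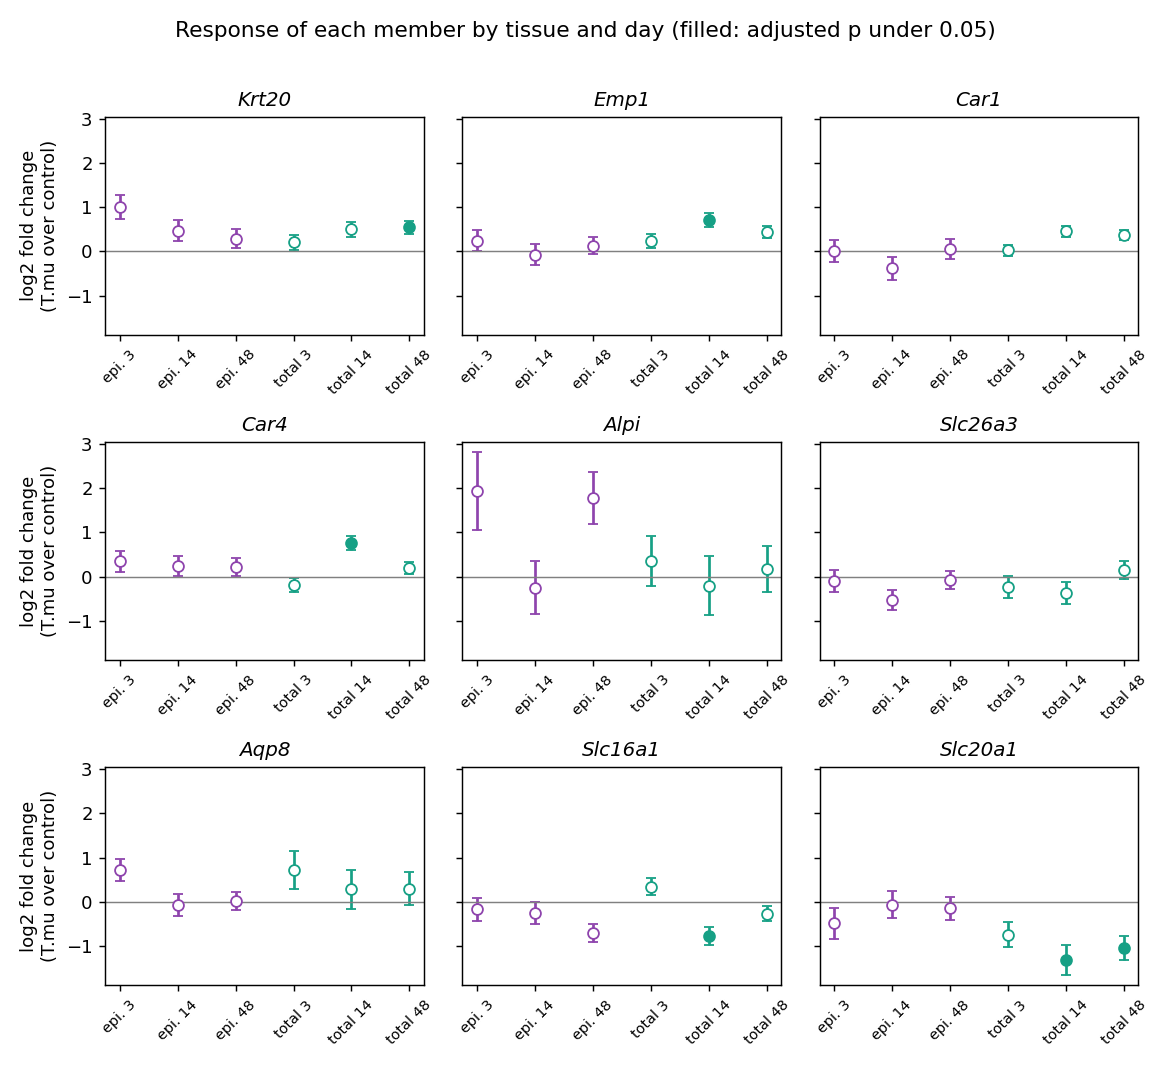
Log2 fold change of T.mu over control with its standard error for each member, in epithelium (purple) and total tissue (green) on days 3, 14 and 48, filled where the adjusted p is under 0.05. The 6 filled points are Emp1, Car4, Slc16a1 and Slc20a1 on day 14 and Krt20 and Slc20a1 on day 48, all in total tissue.

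Whether the response differed between the preparations was tested as the T.mu effect in epithelium minus that in total tissue. On days 3, 14 and 48 edgeR called 0 of 9 members, against a background of 0.0338%, 0% and 0.0338%, and DESeq2 called 0. Unadjusted p-values under 0.05 went to 2, 3 and 2 members. Slc20a1 had differences of 1.26 ± 0.46 on day 14 (adjusted p = 0.519) and 0.93 ± 0.37 on day 48 (0.418), and Krt20 had 0.87 ± 0.32 on day 3 (0.328; 1.37, adjusted p = 0.0458, without control epithelial replicate 2). The response was therefore not shown to be particular to either preparation. A difference of the effect between days was called for 0 members in each tissue (background 0% in epithelium and 0.0684% in total tissue), with unadjusted p under 0.05 for 1 member in epithelium and 3 in total tissue, and DESeq2 called 0 and 2.

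In control mice all 9 members were lower in epithelial cells than in total tissue over the days, where 52.8% of 11834 genes were called and 29.7% were lower. Alpi was 15.7-fold lower (-3.97 ± 0.41, adjusted p = 9.88e-10), averaging 6.64 ± 6.23 CPM in control epithelium and 99.4 ± 65.7 CPM in control total tissue (SD, n = 10 each). Krt20 was 12.3-fold lower (-3.63 ± 0.13, adjusted p = 6.86e-41), with 73.6 to 291 CPM in epithelium and 1774 to 2611 CPM in total tissue. Member levels in this contrast were scaled over all libraries together and differ from those given within each tissue. Aqp8 was 5.2-fold, Emp1 5.1-fold, Car1 4.37-fold and Slc26a3 2.44-fold lower.

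Car4, at 699 ± 239 CPM in control epithelium and 1270 ± 160 CPM in control total tissue, was 1.85-fold lower, and Slc20a1 was 1.79-fold lower. Slc16a1 stood nearest to equal, 226 ± 40.1 CPM in epithelium and 293 ± 90.1 CPM in total tissue (-0.31 ± 0.13, adjusted p = 0.038), and with the replicate block its adjusted p was 0.0513. It kept the call in 4 of 20 fits without 1 library, and RLE scaling gave -0.06 (0.691). By day, 8, 6 and 9 members were lower on days 3, 14 and 48, against 18.5%, 15.0% and 21.1% of genes. DESeq2 called 8 over the days and 7, 5 and 8 by day, without Slc16a1 over the days and on day 48, Slc20a1 on day 3 and Slc26a3 on day 14. The exceptions were Slc16a1 on day 3 and Car4, Slc16a1 and Slc20a1 on day 14. On day 14 the preparations also differed in the second part of the sample name, which cannot be told apart from the preparation. Alpi was 4.39-fold lower in epithelium on day 14 and 41.5-fold lower on day 48. On day 14 Alpi lost its call without control epithelial replicates 1 or 2 (adjusted p 0.0501 and 0.0681), and Slc26a3 without any one of the 3 or control total tissue replicate 1 (0.0994 to 0.481).

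**Figure D4:**
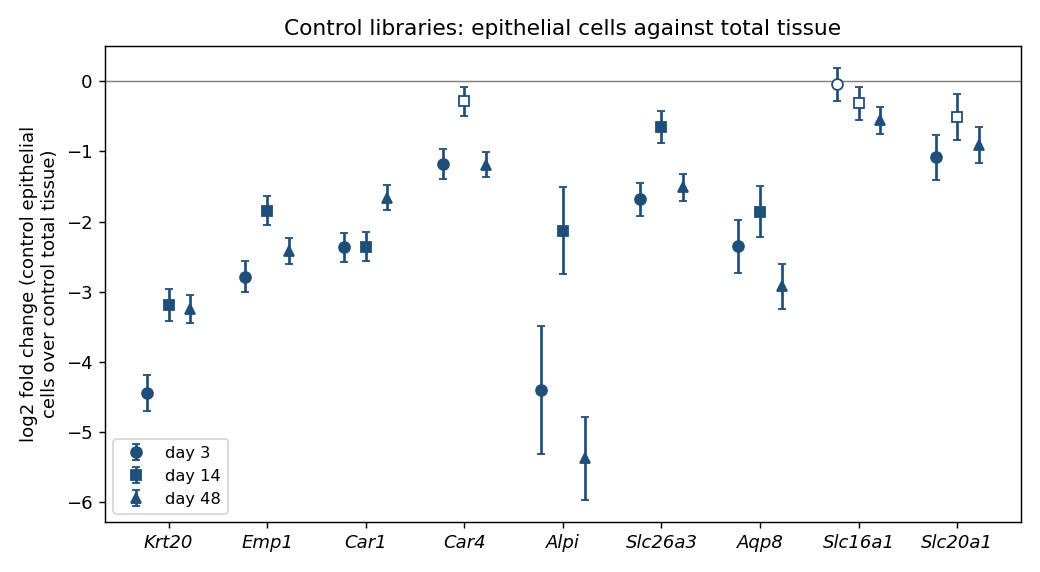
Log2 fold change of control epithelial cells over control total tissue with its standard error, for each member on days 3, 14 and 48, filled where the adjusted p is under 0.05. Krt20 and Alpi lie lowest and Slc16a1 lies closest to 0.

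Scaling changed part of this contrast. Over all genes the median log2 fold change was -0.068 with TMM, 0.184 with RLE scaling and 0.716 with scaling to the pan-epithelial genes. Under the last, Krt20 was still lower at -2.87 and Alpi at -3.22, whereas Car4 (-0.10) and Slc20a1 (-0.07) were no longer called and Slc16a1 was higher (0.48, adjusted p = 0.0107).

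Other epithelial genes were also unlike between the preparations. Of 30 other colonocyte genes tested, 25 were lower and 2 higher in control epithelium, among them the drug efflux pump gene Abcb1a (6.16-fold lower) and Cyp2c55, a cytochrome P450 (5.01-fold lower). Of 17 genes of the crypt base and proliferation, 15 were higher and 0 lower, including Mcm5, a DNA replication licensing factor, by 6.71-fold and Mki67, a proliferation marker, by 3.76-fold. All 10 goblet cell genes were higher, Muc2, the main secreted mucin, by 8.38-fold. All 7 smooth muscle genes and all 6 fibroblast genes were lower. Pan-epithelial genes were unlike as well, given here as unscaled counts over all libraries of epithelium and of total tissue. Epcam held 21957 and 146397, Cldn7 13113 and 72435, Cldn3 8679 and 34771, and Krt8 38040 and 99961. Cdh1 held 10232 and 22628, Krt19 44995 and 60864, and Krt18 7551 and 9557. The median library had 1166080 counts in epithelium and 2158349 in total tissue.

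Genes that mark position along the gut also differed. Hoxb13 held 3596 counts over the 20 epithelial libraries and 4 over the 20 total tissue libraries, Hoxd13 218 and 5, and Hoxa13 314 and 16. Hoxd10 went the other way, with 35 counts in epithelium and 321 in total tissue. Atp12a, the colonic proton-potassium pump, was 347-fold higher in control epithelium, and the hormone gene Insl5 181-fold higher. Posterior Hox genes summed to 93.7 to 286 CPM in control epithelium and 2.63 to 16.1 CPM in control total tissue. The region of colon sampled is not given in the sources used here, and the part that region, cell isolation or cell mix had in the lower level of the members was not tested.

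**Figure D5:**
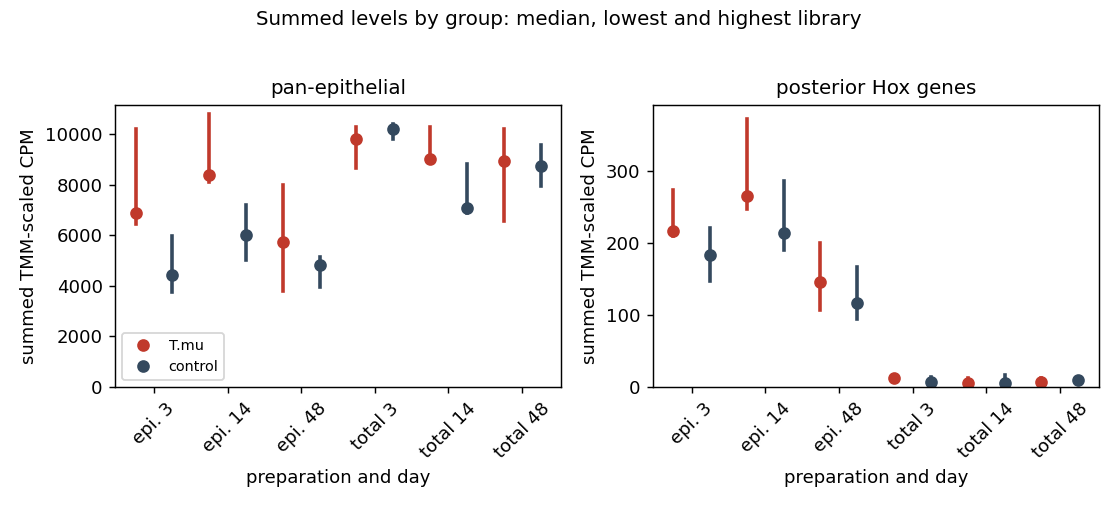
Summed CPM of the 7 pan-epithelial genes (left) and 7 posterior Hox genes (right) for each preparation and day, T.mu left of control, as the median library (point) and the lowest to highest library (line). Posterior Hox genes sum to at least 93.7 CPM in every epithelial library and at most 16.1 CPM in every total tissue library.

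Around the members, other surface genes gave calls in total tissue. Of the 30 other colonocyte genes, 3 were higher and 1 lower with T.mu over the days. Plac8 was 1.79-fold higher (adjusted p = 4.04e-10), and Lypd8, which encodes a secreted protein that keeps flagellated bacteria from the mucosa, was 1.49-fold higher (6.35e-08). The median log2 fold change was 0.08 over these 30 genes, 0.26 over the 9 members and -0.03 over all genes. Klf4, a transcription factor of differentiated epithelial cells, was 1.57-fold higher on day 48 (adjusted p = 0.0414), 1 of 15 differentiation factors tested.

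Of the 22 partners in transport and enzyme function tested in total tissue, edgeR called 0 over the days, 4 had an unadjusted p under 0.05 and DESeq2 called 1. They include Slc5a8, a second carrier of short-chain fatty acids, at a log2 fold change of 0.56 ± 0.18 (adjusted p = 0.177), and Slc20a2, the paralog of Slc20a1, at 0.10 ± 0.33 (0.972). In epithelium, 2 of 29 other colonocyte genes were higher over the days, Lypd8 (1.36-fold) and Vil1 (1.37-fold), and 1 was lower, Cyp2c55 (1.43-fold). The proliferation gene Mcm2 was 2.14-fold higher there (adjusted p = 0.0154), 1 of 17 tested, and the goblet gene Tff3 was 1.43-fold lower (0.027), 1 of 10.

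The genes whose profile over the 12 group means was most like a member's were searched among 7671 genes with a mean of at least 10 CPM, by the root mean square difference of centred log2 CPM. Krt20 was closest to Lpin2 (0.28), Sprr1a (0.29) and Tgfbi (0.29), and Emp1 to Car12 (0.22), H2-Q2 (0.27) and AA986860 (0.29). Car1 was closest to Cyp2c65 (0.17), Fam162a (0.20) and H2-Q2 (0.22), and Car4 to Mapk13 (0.17), Stat6 (0.20) and Psme2 (0.21). For the transporters, Slc26a3 was closest to Itgb6 (0.21), Slc16a1 to Nudt4 (0.21) and Slc20a1 to Rnf6 (0.30), while Aqp8 was closest to 4930539E08Rik (0.24) and Alpi to Cidec (0.51). No member was among the 3 closest genes of another. The 12 means share the contrast between the preparations.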

How the data were processed

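The authors deposited whole-number counts per gene for 40 libraries, 1 column each, without normalization. RNA was sequenced as 3′ digital gene expression libraries, per the labels' protocols, and STAR and Subread are named, without version or role, per the submitters' processing notes. The authors' genome build, annotation and strand setting are not given in the sources used here. Symbols and coordinates were taken from GENCODE M21 on GRCm38, which matched 45143 of 45792 gene IDs (98.6%). A further entry that is not a mouse gene, with 269150 of 69164307 counts (0.389%), entered neither the library sizes nor the tests.

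Groups, days and litters came from the labels. Genes were filtered with filterByExpr (minimum count 10, minimum total count 15) and scaled by TMM, and edgeR 4.0.16 quasi-likelihood tests (limma 3.58.1, R 4.3.3) were fitted per tissue over all 6 groups, or over all 12 for contrasts between tissues, with Benjamini-Hochberg adjustment over every gene tested. A gene counts as called at adjusted p under 0.05. DESeq2 1.42.0, RLE scaling, scaling to 7 pan-epithelial genes, no low-count filter, counts halved, only the libraries compared, removal of libraries under 400000 counts, each library left out, and a replicate block on litter were alternatives, and leaving out ribosomal RNA genes with Lars2 was added after seeing the data. Same-numbered litters were in the labels for 20 pairs of T.mu and control libraries. Their deviations from the group means correlated by -0.1 to 0.19, over 0.1 in 3 pairs, so the block stayed an alternative. Epithelial and total tissue libraries of the same arm, day and litter were not checked in this way.

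No replicate pair agreed within sampling noise (chi-square per degree of freedom 2.75 to 61.3). All 9 members are described, with the 2 genes of lowest p per list, direction and comparison among those called, the 3 genes most like each member, and a few more named after their values were seen. The values of 1 further gene that this rule names are not reported here. The members and lists were chosen with earlier results of these data known. PCR duplicates cannot be separated here, so counts do not equal molecules. Promoter sequence is from RefSeq on GRCm38.p6.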

Additional observations from a re-analysis of the deposited data

How the results depend on the processing

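The counts of members called depended on the scaling and on the libraries kept. Leaving out libraries under 400000 counts removed 2 of 3 control libraries in total tissue on day 14 and in epithelium on day 3. It also removed 2 of 4 T.mu libraries in total tissue on day 48. Fewer members were then called in total tissue on days 14 and 48 and over the days. The same held in epithelium over the days and between tissues on day 14. An effect of depth cannot be told apart from the loss of libraries. On day 14 in total tissue the log2 fold changes were then 0.58 for Emp1, 0.58 for Car4, -0.55 for Slc16a1 and -0.98 for Slc20a1. With pan-epithelial scaling, 2 were called in total tissue on day 14, 1 on day 48, 1 between control days there, 3 in epithelium over the days (Slc26a3, Slc16a1 and Slc20a1, all lower) and 5 between tissues on day 48. That scaling also turned Slc16a1 between control tissues to 0.479 over the days, 1.09 on day 3 and 0.342 on day 48, and Slc20a1 to 0.003 on day 3 and 0.005 on day 48. DESeq2 called 4 members in total tissue on day 48, 2 in epithelium over the days, 2 between control epithelial days and 2 for an effect that differed between days in total tissue. With no filter on low counts, 1 was called in total tissue on day 48, 4 between control days there, 1 between control epithelial days and 1 for a differing effect in total tissue. Fitting only the libraries compared gave 0 in total tissue on day 48 and 1 between control epithelial days. The cause was not tested.

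With the replicate block on litter, 1 member (Krt20) was called in epithelium on day 3 and 1 (Car4) for an effect that differed between days in total tissue. Car1 on days 14 and 48 and Slc16a1 between control tissues also changed their call, as given beside their results, and the block changed no other member's call. Leaving out 1 library gave 0 to 1 members in epithelium on day 3, 1 to 2 over the days, 0 to 5 in total tissue on day 14, 0 to 2 on day 48, 0 to 1 for a differing effect, 1 to 3 between control days there and 0 to 1 for the tissue difference of the effect on day 3. Shallow libraries limit precision, and the lowest count of a library was 0 for Alpi, 7 for Slc20a1 and 16 for Krt20.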
